A study of Mus musculus with 11 samples.

Results

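Whole distal tibiae were sequenced as strand-specific mRNA from 4 Control and 7 BMAd-DTA mice, and the 9 genes described here, Alas2, Alad, Uros, Urod, Cpox, Ppox, Fech, Slc25a38 and Tmem14c, encode enzymes and mitochondrial carriers of heme synthesis. They were chosen by symbol among the 22600 genes of the merged count table, and all 9 passed the filter on low counts that left 16496 genes for testing. All mice were 24 weeks old, of a mixed C57BL6/SJL strain and fed ad libitum, and each library came from 1 mouse. BMAd-DTA mice express diphtheria toxin A from the ROSA locus once Cre has removed a floxed STOP cassette, and Cre comes from the Adipoq locus after Osterix-driven FLPo has turned its cassette, so the toxin acts mostly in bone marrow adipocytes and in a small share of marrow stromal cells. Recombination in this model is incomplete. Control mice, labelled BMAd-WT, were littermates without the toxin. Both groups carried Osterix-FLPo and the FLPo-dependent Adipoq-Cre allele (FAC), so the lower circulating adiponectin known for these alleles is common to both.

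Heme is iron protoporphyrin, the oxygen-binding group of hemoglobin. Its synthesis starts in the mitochondrion, where glycine brought in by SLC25A38 is joined to succinyl-CoA by aminolevulinate synthase, continues in the cytosol through enzymes that include ALAD, UROS and UROD, and returns to the mitochondrion for CPOX, PPOX and FECH, with TMEM14C carrying the porphyrinogen substrate into the matrix. Most heme of the body is made by erythroblasts of the marrow, which use ALAS2 for the first step, while other cells use ALAS1. In bulk bone RNA, fewer erythroblasts and less RNA per erythroblast cannot be told apart.

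The promoters are shown because erythroid genes are typically controlled by GATA1, which binds GATA motifs. RefSeq promoters on GRCm38.p6 were at hand for 8 of the 9 genes, and the 250 bases before each start were searched on both strands for AGATAA or TGATAA. Matches were present before a start of Alas2, Cpox and Uros, that is in 3 of 8 genes, against 18.8% of the 27025 genes in the table (3 of 10 promoters, against 16.6% of all 32851). In both Alas2 (chrX:150547304-150547363, plus strand) and Cpox (chr16:58670095-58670154, plus strand) the match lay 86 to 81 bases before the start. The Uros match (chr7:133702551-133702580, minus strand) lay 68 to 63 bases before the more downstream of its 2 starts, in a region that GENCODE gives as exon for other Uros transcripts. The bases around each match are written 5′ to 3′ on the strand of the gene, with the match, here the reverse complement of the motif, in capitals.
Alas2: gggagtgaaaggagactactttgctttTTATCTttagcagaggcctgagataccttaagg
Cpox: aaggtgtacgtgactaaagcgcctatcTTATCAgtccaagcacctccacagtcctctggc
Uros: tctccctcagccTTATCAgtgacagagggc
A broader motif of the erythroid factor KLF1, CCNCNCCC, matched before starts of Alas2, Alad, Uros, Slc25a38 and Tmem14c, 5 of 8 genes, with overlapping matches in Alas2, Alad and Slc25a38, against 48.5% of all genes in the table. No letters of either motif were found before the starts of Ppox and Urod. A match describes the sequence and was not tested for binding.

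Library totals ranged from 16969529 to 18637663 counts, and the 9 genes held between 639 counts (Uros, the least counted) and 23516 counts (Alas2) in a library, so the spread between mice far exceeded counting error. Control 4 stood apart from the other Control mice. Its erythroid marker score, the mean of 18 erythroid genes in log2 CPM (counts scaled to library size), was 7.28 against 7.80 to 8.26 in Control 1 to 3, while the BMAd-DTA mice ranged from 7.17 to 7.81, with BMAd-DTA 5 at the top. The score of skeletal muscle markers varied from 0.563 to 6.65 over the libraries and was low in Control 4 and in BMAd-DTA 2, 3 and 5. Xist was at 778 to 1100 CPM in every library and 4 Y-linked genes together at no more than 0.0582 CPM, and the labels give no sex. The study's figure text describes male mice where it shows data of these tibiae, which these values go against.

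Transcripts of the heme pathway were, on the whole, less abundant in BMAd-DTA tibiae, but no gene of the 9 was called by edgeR's quasi-likelihood test at an adjusted p under 0.05, as 0.0788% of all tested genes were. 8 of the 9 had a lower mean in BMAd-DTA mice. The median of their log2 fold changes (BMAd-DTA minus Control) was -0.32, beside 0.0018 over all genes tested, of which 49.6% were lower. At an unadjusted p under 0.05, 5 of 9 genes were lower (Cpox, Uros, Slc25a38, Ppox and Urod), beside 8.53% of all genes. The genes were measured in the same 11 mice, and pairs without Alad had Pearson's r of 0.59 to 0.97. Such counts, here and in the lists below, are therefore not independent observations. For none of the 9 did all BMAd-DTA mice lie below all Control mice, which 1.04% of all genes showed. Comparisons given below for single genes that leave out the Control mouse lowest in all 9 genes make such separation easier. The share of all genes that separated without that mouse was not determined, so these comparisons only describe the values. With DESeq2, 3 of the 9 genes (Cpox, Uros and Slc25a38) were called lower, beside 2.64% of all genes.

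**Figure D1:**
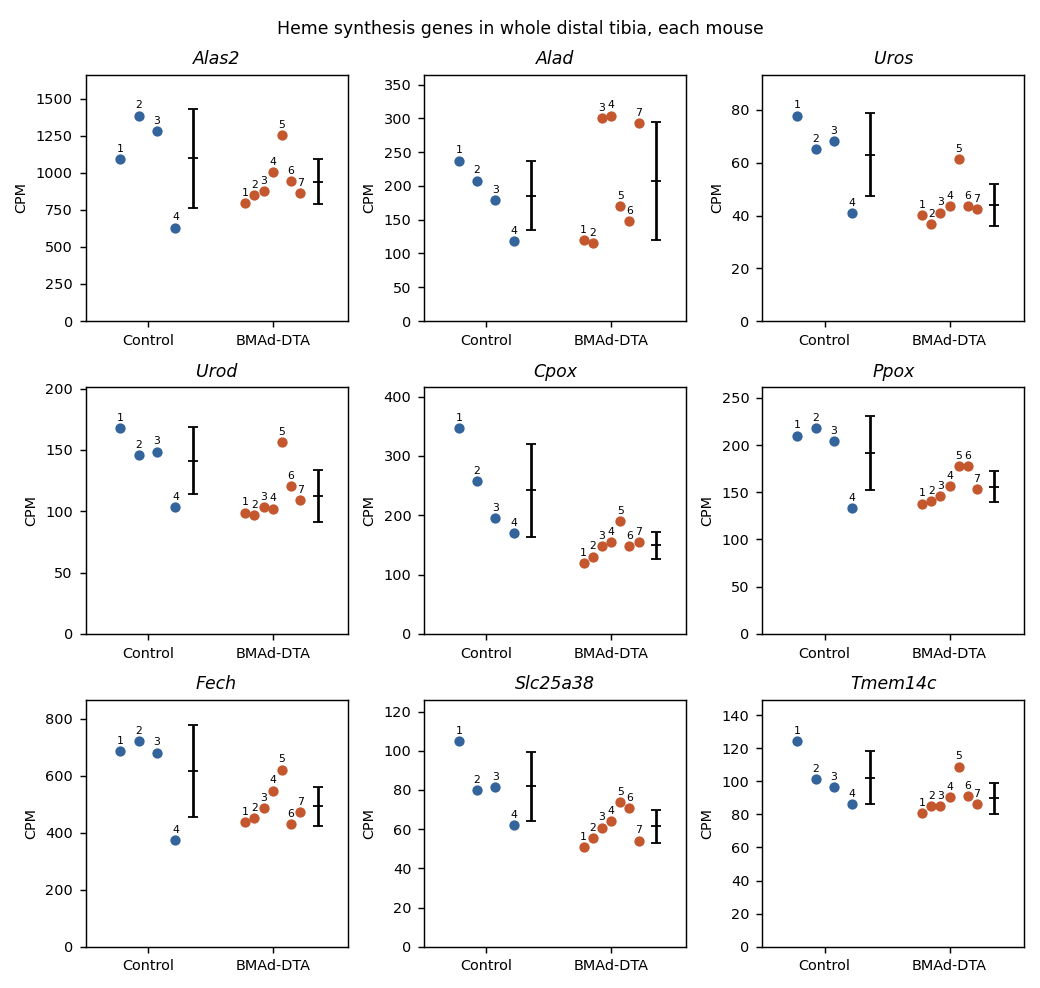
CPM of the 9 heme synthesis genes in each mouse (points, numbered as in the text; blue, 4 Control mice; red, 7 BMAd-DTA mice), with the mean and SD of each group in black and axes from 0. Control 4 lies below Control 1 to 3 in all 9 panels, and Alad is near 300 CPM in BMAd-DTA 3, 4 and 7 alone.

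Alas2 encodes the erythroid aminolevulinate synthase, the rate-limiting enzyme of the pathway in erythroblasts (ENSMUSG00000025270.13, chrX:150547375-150570638, plus strand). It had 1093, 1385, 1283 and 629.3 CPM in Control 1 to 4 and 794.1 to 1251 CPM in BMAd-DTA mice, with a median of 873.7. Control 4 was the lowest of all mice, and the range of the BMAd-DTA mice lay within that of the Control mice, although 6 of 7 BMAd-DTA mice were below the other 3 Control mice. The means were 1098 ± 335 (SD, n = 4) and 940 ± 153 CPM (SD, n = 7), a log2 fold change of -0.22 ± 0.18 (SE, edgeR adjusted p = 0.59). Apex2 overlaps Alas2 on the opposite strand. Counts taken without strand kept 70% to 78.1% of the stranded Alas2 counts, since reads in shared bases were then ambiguous.

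Slc25a38, the mitochondrial glycine carrier that feeds the first step (ENSMUSG00000032519.11, chr9:120110374-120124504, plus strand), had 104.8, 79.8, 81.3 and 62.0 CPM in Control 1 to 4. BMAd-DTA mice ranged from 50.7 to 73.8 CPM with a median of 60.8. All 7 BMAd-DTA mice were below Control 1 to 3, and 4 of them below Control 4 as well. The log2 fold change was -0.42 ± 0.13 (SE, unadjusted p = 0.0076, edgeR adjusted p = 0.14).

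Alad encodes the enzyme that forms porphobilinogen (ENSMUSG00000028393.10, chr4:62509169-62519918, minus strand), and it was the exception in direction. Control 1 to 4 had 237.5, 208.0, 178.8 and 118.4 CPM. Among BMAd-DTA mice, numbers 1, 2, 5 and 6 had 119.7, 115.9, 170.0 and 147.6 CPM, and numbers 3, 4 and 7 had 300.0, 304.1 and 293.3 CPM. The BMAd-DTA mice thus fell into 3 that were above every Control mouse and 4 that were within or just below the Control range. The mean difference of 0.16 ± 0.30 (log2, SE, edgeR adjusted p = 0.84) was smaller than its error.

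The next 2 enzymes, which close and decarboxylate the porphyrinogen ring, were among the 5 genes with an unadjusted p under 0.05. Uros, uroporphyrinogen III synthase (ENSMUSG00000030979.13, chr7:133686243-133710072, minus strand), had 77.9, 65.1, 68.1 and 40.9 CPM in Control 1 to 4 and from 36.6 to 61.3 CPM, with a median of 42.4, in BMAd-DTA mice. All 7 BMAd-DTA mice were below Control 1 to 3, and 2 were below all 4 Control mice. Its log2 fold change was -0.51 ± 0.16 (SE, unadjusted p = 0.0070, edgeR adjusted p = 0.14). Urod, uroporphyrinogen decarboxylase (ENSMUSG00000028684.14, chr4:116989965-116994413, minus strand), had 167.5, 145.5, 148.6 and 103.3 CPM in Control mice and 96.7 to 156.6 CPM, with a median of 103.2, in BMAd-DTA mice. Here BMAd-DTA 5 was within the range of Control 1 to 3 and the other 6 were below it. The log2 fold change of Urod was -0.33 ± 0.14 (SE, unadjusted p = 0.039, edgeR adjusted p = 0.27).

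Cpox showed the largest difference of the 9 genes. It encodes coproporphyrinogen oxidase of the mitochondrial intermembrane space (ENSMUSG00000022742.6, chr16:58670292-58717636, plus strand). Control 1 to 4 had 346.2, 257.3, 195.6 and 169.8 CPM, and BMAd-DTA mice 119.1 to 189.8 CPM with a median of 148.6. The groups met only through BMAd-DTA 5, which was above Control 4, while the other 6 BMAd-DTA mice were below every Control mouse. Means were 242 ± 78.4 (SD, n = 4) and 149 ± 22.3 CPM (SD, n = 7), that is 0.617 times the Control level by the fit. The log2 fold change was -0.70 ± 0.17 (SE, unadjusted p = 0.0011, edgeR adjusted p = 0.077), and 1.98% of all genes had a more negative one. The Control mice spread widely, and without Control 1 the log2 fold change of Cpox was -0.48.

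Tmem14c, which brings protoporphyrinogen into the matrix (ENSMUSG00000021361.7, chr13:41016292-41022586, plus strand), differed least among the genes that were lower. Its levels were 124.1, 101.3, 96.4 and 86.2 CPM in Control 1 to 4 and 80.7 to 108.8 CPM, with a median of 86.3, in BMAd-DTA mice. The groups overlapped, and the log2 fold change was -0.19 ± 0.099 (SE, edgeR adjusted p = 0.37). Ppox, protoporphyrinogen oxidase (ENSMUSG00000062729.11, chr1:171275990-171281186, minus strand), had 210.0, 217.5, 204.2 and 133.5 CPM in Control mice. BMAd-DTA mice had 137.9 to 178.0 CPM, with a median of 153.5, so that all 7 were below Control 1 to 3 and all were above Control 4. The log2 fold change of Ppox was -0.30 ± 0.12 (SE, unadjusted p = 0.030, edgeR adjusted p = 0.24). B4galt3 overlaps Ppox on the opposite strand, and 8.9% to 15.5% of stranded counts at Ppox were antisense, against at most 0.932% at any other of the 9 genes.

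Fech, ferrochelatase, inserts iron into protoporphyrin in the last step. Control 1 to 4 had 686.1, 720.9, 681.5 and 374.7 CPM, and BMAd-DTA mice 430.6 to 622.1 CPM with a median of 471.6. As for Ppox, every BMAd-DTA mouse was below Control 1 to 3 and above Control 4. The log2 fold change was -0.32 ± 0.16 (SE, unadjusted p = 0.062, edgeR adjusted p = 0.33).

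These counts depended on single mice. The number of genes lower at an unadjusted p under 0.05 was 8 of 9 without Control 4 and 7 without BMAd-DTA 5, but 3 without any one of Control 1, Control 2, Control 3, BMAd-DTA 1, BMAd-DTA 2 or BMAd-DTA 3. Cpox and Uros both reached an edgeR adjusted p of 0.0487 without Control 4, and Cpox alone an edgeR adjusted p of 0.0496 without Control 3. Calls over all genes went from 13 to 89 without Control 4 and to 292 without Control 3. They fell to 0 without Control 1, Control 2, BMAd-DTA 1 or BMAd-DTA 6, and to 3 without BMAd-DTA 4. Without BMAd-DTA 2, 3, 5 or 7 they were 8 to 14.

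Per kilobase of exon, the scale on which levels of different genes can be compared, Alas2 was by far the most abundant, with a median of 392.5 CPM per kb (261.9 to 576.3 over 11 mice), above every other gene in all 11 mice. Tmem14c (99.1 CPM per kb) and Alad (95.6) followed and did not separate, since Tmem14c was the higher in 7 of 11 mice. Urod had 42.2, Fech 35.1, Ppox 34.6, Cpox 23.3 and Slc25a38 23.3 CPM per kb. Cpox and Slc25a38 changed places between mice, with Cpox the higher in 7 of 11. Uros had the lowest level (12.2 CPM per kb) and was below Slc25a38 in all 11 mice. The median of Alas2 was 494.4 CPM per kb in Control and 363.6 in BMAd-DTA mice, and that of Uros 18.6 and 11.9. Exon lengths pool all annotated transcripts, 13838 bases for Fech, and which exons were used was not measured, so the order depends on that annotation.

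Alas1, the housekeeping isoenzyme of Alas2, was at 165.1 to 192.2 CPM in Control and 156.4 to 231.1 CPM in BMAd-DTA mice, a log2 fold change of 0.11 ± 0.098 (SE, edgeR adjusted p = 0.63). Levels of Alas1 thus spread much less than those of Alas2. The log2 ratio of Alas2 to Alas1 was 2.56 ± 0.61 (SD, n = 4) in Control and 2.28 ± 0.37 (SD, n = 7) in BMAd-DTA mice, and it was lowest, at 1.71, in Control 4. Its difference of -0.28 was smaller than the SD of either group. An exact permutation test over 330 splits gave p = 0.35 (two-sided, smallest possible p 0.003).

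**Figure D2:**
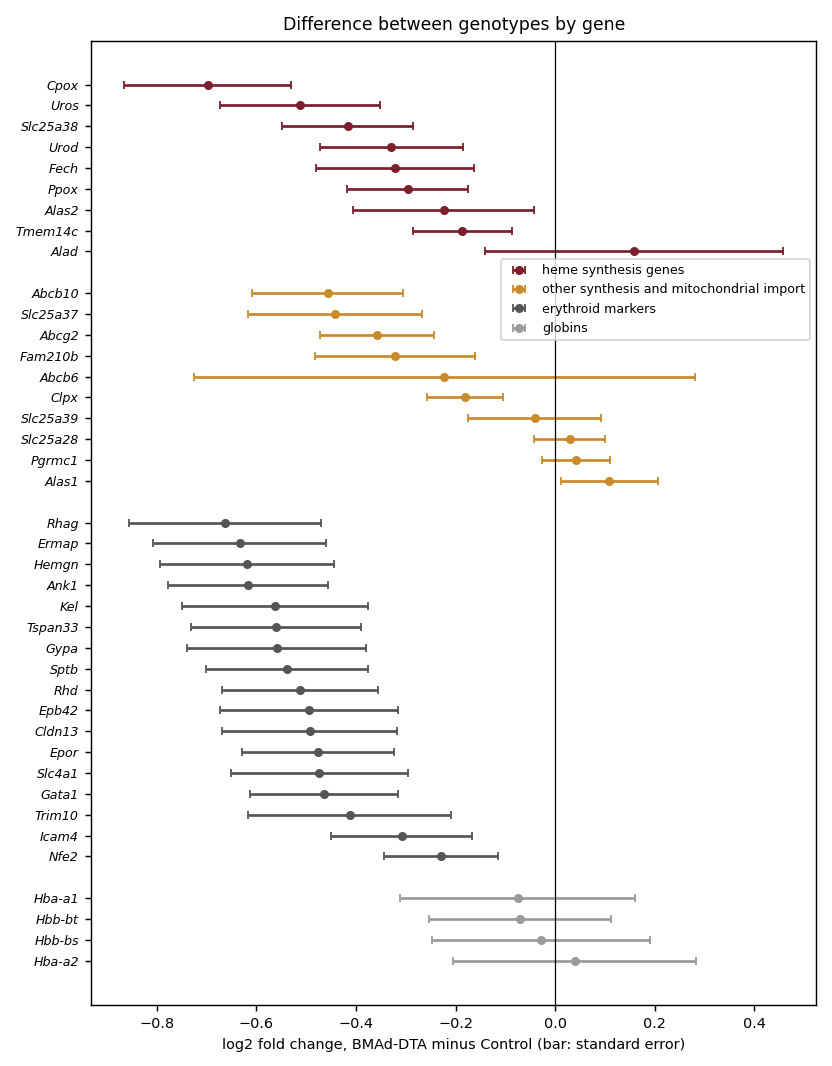
Log2 fold change between BMAd-DTA and Control mice (points; bars, SE of the edgeR fit) for the 9 heme synthesis genes, other genes of synthesis and mitochondrial import, erythroid markers and 4 globin genes. The erythroid markers shown and 8 of the 9 heme genes lie left of 0, the globins near 0, and Alad right of 0 with the widest bar of the 9.

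Genes that supply the pathway showed similar values. In the list of other synthesis and mitochondrial import genes, 9 of 12 were lower, 6 of them at an unadjusted p under 0.05 (8.53% of all genes), and none passed the adjusted threshold. The median log2 fold change of the list was -0.26. Abcb10, a mitochondrial transporter needed for hemoglobin synthesis, was among the lowest at -0.46 ± 0.15 (SE, edgeR adjusted p = 0.15), and at the other end were Alas1 and Pgrmc1, a heme-binding protein, at 0.04 ± 0.069 (SE, edgeR adjusted p = 0.82).

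Among 16 genes of iron supply and iron-sulfur clusters, 12 were lower, with a median log2 fold change of -0.19. At an unadjusted p under 0.05, 7 were lower and 1 was higher, beside 8.53% and 7.89% of all genes, and none passed the adjusted threshold. Tfr2, an erythroblast transferrin receptor, was at -0.49 ± 0.17 (SE, edgeR adjusted p = 0.16). Tfrc, the receptor that takes up transferrin iron, was at -0.43 ± 0.12 (SE, edgeR adjusted p = 0.12). Ftl1, the ferritin light chain, was at 0.98 ± 0.37 (SE, edgeR adjusted p = 0.20), with 211.1 to 1115 CPM in Control and 734.4 to 1401 CPM in BMAd-DTA mice. Ftl1 has near-identical copies in the genome, which makes its counts uncertain. Slc40a1, the iron exporter ferroportin, was at 0.14 ± 0.14 (SE, edgeR adjusted p = 0.67).

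The 9 genes of heme export, breakdown and sensing did not lean one way, with 5 lower, 4 higher and a median log2 fold change of -0.027. At an unadjusted p under 0.05, 3 were lower (8.53% of all genes) and 2 were higher, and none passed the adjusted threshold. Flvcr2, a membrane transporter related to the heme exporter FLVCR1, had 1.21, 2.06, 2.07 and 2.33 CPM in Control 1 to 4 and 3.09 to 7.16 CPM in BMAd-DTA mice. Every BMAd-DTA mouse was above every Control mouse, which held for 1.78% of all genes, and the log2 fold change was 1.16 ± 0.29 (SE, edgeR adjusted p = 0.085). Hmox1, the inducible heme oxygenase of macrophages, had 192.6, 403.9, 364.2 and 278.7 CPM in Control 1 to 4 and 402.2 to 535.2 CPM in BMAd-DTA mice, a log2 fold change of 0.52 ± 0.16 (SE, unadjusted p = 0.0068, edgeR adjusted p = 0.13). An unadjusted p under 0.05 with a higher level, as for both of these, was seen for 7.89% of all genes. At the other end, Blvrb, a biliverdin reductase, was at -0.41 ± 0.15 (SE, unadjusted p = 0.020, edgeR adjusted p = 0.20). Eif2ak1, the heme-regulated kinase of erythroblasts, was at -0.29 ± 0.12 (SE, unadjusted p = 0.029, edgeR adjusted p = 0.24).

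Erythroid markers outside the pathway moved with the heme genes. All 18 measured markers were lower in BMAd-DTA mice, 16 at an unadjusted p under 0.05 (8.53% of all genes) and none past the adjusted threshold, and the median of the list was -0.53 (log2 fold change). Being measured in the same 11 mice, these markers are not independent of each other. They ran from -0.66 ± 0.19 for Rhag to -0.31 ± 0.14 for Icam4 and -0.23 ± 0.11 for Nfe2 (SE; edgeR adjusted p = 0.12, 0.30 and 0.34). Klf1 and Ahsp were not analysed here. The summed level of the 18 markers was 4800 to 9867 CPM in Control and 4536 to 7202 CPM in BMAd-DTA mice. By contrast the 4 globin genes, which mature erythroid cells contain in large amounts, had log2 fold changes with a median of -0.05, and summed to 11870 to 28409 CPM in Control and 16305 to 31064 CPM in BMAd-DTA mice.

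Markers of other cells are given by their summed level and the direction of their means; of all these markers, 1 gene, the osteoblast marker Alpl, passed the adjusted threshold. Osteoblast and osteocyte markers were higher, 7 of 7, with a summed level of 1717 to 7519 CPM in Control and 9416 to 20431 CPM in BMAd-DTA mice. All 6 B cell markers were higher (393 to 894 and 675 to 1550 CPM). The 6 cycling markers were all lower (2839 to 3989 and 2100 to 2776 CPM), as were the 6 adipocyte markers (592 to 1291 and 208 to 823 CPM) and the 10 skeletal muscle markers, whose ranges overlapped almost fully (17.8 to 1346 and 19.2 to 1041 CPM). All 6 cycling markers were lower at an unadjusted p under 0.05 (8.53% of all genes), as were 3 of 6 adipocyte and 0 of 10 skeletal muscle markers. At the same p, 7 of 7 osteoblast and osteocyte markers and 1 of 6 B cell markers were higher (7.89% of all genes). No single cycling marker separated the groups. The summed levels of the cycling markers did not overlap, while their mean log2 CPM did (7.972 to 8.362 in Control and 7.625 to 7.993 in BMAd-DTA mice). Neutrophil markers (22258 to 25739 and 18218 to 26631 CPM) and marrow macrophage markers (1488 to 1509 and 1340 to 1595 CPM) overlapped between groups. The part of these cells in the lower heme transcripts was not tested, apart from the muscle and erythroid scores given next.

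With the muscle score as a covariate, the median log2 fold change of the 9 genes was -0.26 and 3 were lower at an unadjusted p under 0.05. With the erythroid marker score as a covariate, the median was 0.078, none of the 9 was lower at an unadjusted p under 0.05, and 5 that had been lower took a positive value. Over all genes, that covariate took the number with an unadjusted p under 0.05 from 2708 to 1077 and the adjusted calls from 13 to 0. Cpox, Uros and Slc25a38 kept negative values with that covariate, of which Cpox had the lowest (-0.19).

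Relative to the erythroid marker score within each mouse, 3 of the 9 genes were higher in BMAd-DTA mice at an exact permutation p under 0.05, namely Tmem14c by 0.31 (log2, p = 0.012), Urod by 0.16 (p = 0.036) and Alas2 by 0.31 (p = 0.042). This share was below that of all genes, of which 40.2% were higher on this scale at the same p, and no gene passed after Benjamini-Hochberg adjustment over all genes (smallest adjusted p 0.0895 for Tmem14c). Of the 9 genes, Uros had the smallest difference between groups on this scale, though Control mice spread from -1.99 to -1.71. Uros was at -1.90 ± 0.13 (SD, n = 4) in Control and -1.90 ± 0.045 (SD, n = 7) in BMAd-DTA mice (exact p = 0.93). Cpox lay lower relative to the markers in BMAd-DTA mice (difference -0.17), with an exact permutation p of 0.067.

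Across the 11 mice the heme genes followed the erythroid marker score to different degrees. The scores left a gap between 7 mice at 7.17 to 7.36 (Control 4 and 6 BMAd-DTA mice) and 4 mice at 7.80 to 8.26, so r over all mice spans this gap. Pearson's r of log2 CPM with the score was 0.98 for Uros, 0.95 for Urod, 0.95 for Cpox, 0.93 for Tmem14c, 0.91 for Slc25a38, 0.90 for Ppox, 0.87 for Fech, 0.76 for Alas2 and 0.24 for Alad. By permutation with 100000 resamples and adjustment over all 16478 genes outside the score, 7 of the 9 passed an adjusted p under 0.05, from 0.0059 for Cpox to 0.035 for Fech, beside 2.4% of all genes. Cpox had a raw permutation p of 1e-05, the smallest these resamples can give. Alas2 had a raw permutation p of 0.0067 (adjusted 0.12) and Alad of 0.48 (adjusted 0.78).

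Spearman's rho was 0.95 for Tmem14c, 0.94 for Uros, 0.94 for Urod, 0.87 for Cpox, 0.86 for Ppox, 0.82 for Slc25a38, 0.80 for Alas2, 0.75 for Fech and 0.38 for Alad, with raw permutation p from 4e-05 (Tmem14c) to 0.011 (Fech) and of 0.25 for Alad. By rho, 2 of the 9 (Tmem14c and Uros) passed after adjustment over all genes, at permutation p values of 0.037 and 0.045. Leaving out Control 1 and Control 2, the mice farthest from the median score, r stayed between 0.81 and 0.98 for the genes other than Alad, for which it was 0.081. Over those 9 mice none of the 9 genes passed the adjusted threshold. Within the 7 BMAd-DTA mice r was 0.98 for Uros, 0.97 for Urod, 0.94 for Tmem14c, 0.90 for Alas2, 0.87 for Cpox, 0.78 for Fech, 0.76 for Ppox, 0.70 for Slc25a38 and 0.063 for Alad. BMAd-DTA 5 lies across the gap from the other 6, and Control alone holds too few mice. Within the 7 mice below the gap, a choice made after seeing the data, r was 0.87 for Uros (permutation p = 0.0073) and 0.85 for Urod (permutation p = 0.011), between 0.47 and 0.68 for Ppox, Cpox, Tmem14c, Alad and Slc25a38, 0.25 for Alas2 and 0.076 for Fech (permutation p from 0.088 to 0.88), and none passed after adjustment over all genes. These 7 mice cover a narrow range of the score, so the relation could not be settled within them.

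**Figure D3:**
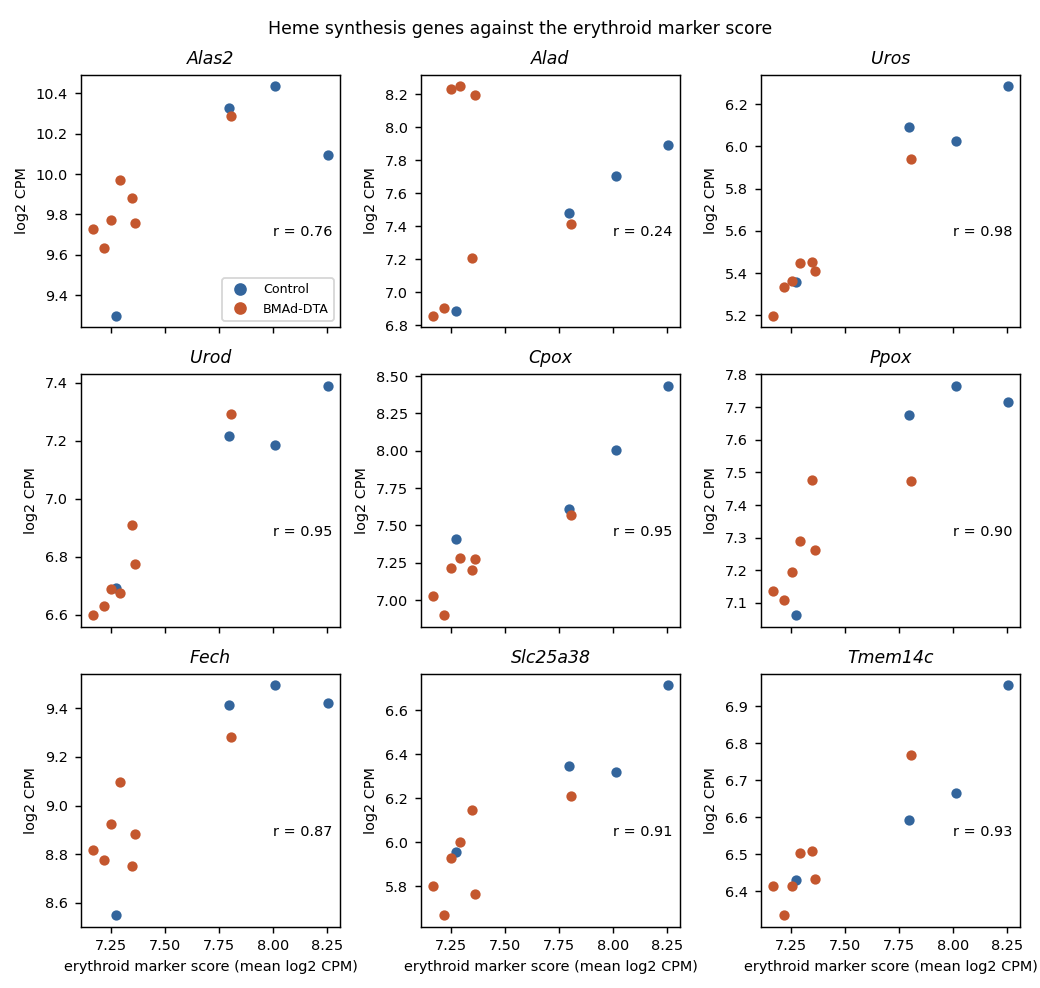
Log2 CPM of each heme synthesis gene against the erythroid marker score (mean log2 CPM of 18 markers) in 4 Control (blue) and 7 BMAd-DTA mice (red), with Pearson's r over 11 mice. Control 4 lies among the BMAd-DTA mice, and in the Alad panel 3 BMAd-DTA mice lie above a line that the other 8 mice form.

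Alad had the lowest r of the 9 genes with the score over all 11 mice, and its values were stepwise rather than graded. Divided by the mean level of the other 8 genes in the same mouse, with the median mouse set to 1, Alad was at 2.18, 2.07 and 2.12 in BMAd-DTA 3, 4 and 7. In the other 8 mice, Control and BMAd-DTA alike, it was between 0.903 and 1.07. No mouse lay between the levels. Among the other genes, treated the same way with Alad left out, Cpox ranged from 0.891 to 1.56, with the highest value in Control 1, and the rest stayed between 0.736 and 1.14. The grouping was seen in the values and was not tested.

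**Figure D4:**
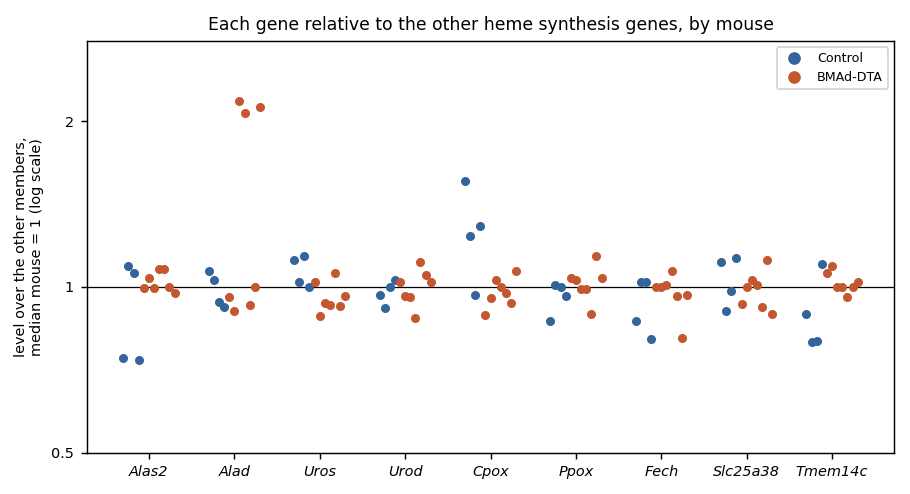
Level of each gene over the mean of the other heme synthesis genes (Alad left out of the mean) in each mouse, scaled to the median mouse, on a log axis (blue, 4 Control; red, 7 BMAd-DTA mice). Alad is at 2.07 to 2.18 in 3 BMAd-DTA mice and between 0.903 and 1.07 in the other 8 mice.

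Among themselves, the 28 pairs of genes without Alad had Pearson's r from 0.59 (Alas2 with Cpox) to 0.97 (Uros with Urod) over the 11 mice, and the 8 pairs with Alad from 0.17 to 0.43. Alas2, Ppox and Fech were close to each other (0.88 to 0.93), as were Uros, Urod, Cpox, Slc25a38 and Tmem14c (0.85 to 0.97). Pairs across these sets could be as high, such as Uros with Ppox (0.91), Urod with Ppox (0.91) and Uros with Fech (0.90). In values, Control 1 had the highest level of each of the last 5 genes but not of Alas2, Ppox and Fech, which were highest in Control 2. These mice share the erythroid score described above, and the correlations are descriptions without a test.

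**Figure D5:**
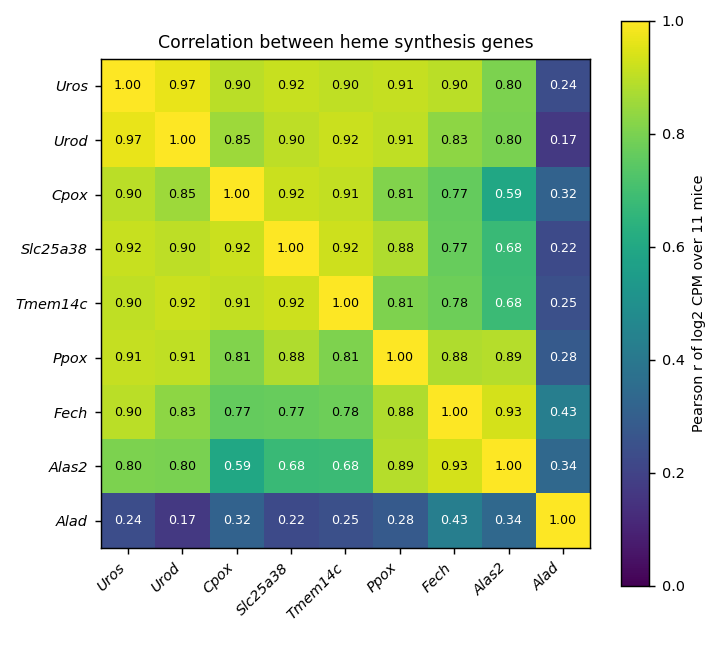
Pearson's r of log2 CPM over 11 mice for each pair of the 9 heme synthesis genes (color and number). Alad has r of at most 0.43 with any other gene, and the other pairs range from 0.59 to 0.97.

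The genes whose pattern was most like the mean log2 CPM of the 9 genes over the 11 mice were E2f2 (r = 0.98), Slc25a37 (0.97), Gch1 (0.97), Car2 (0.97), Aqp1 (0.96), Prdx2 (0.96), Tspan33 (0.96), Mpst (0.96), Vopp1 (0.96) and Mocs1 (0.96). Slc25a37 encodes mitoferrin, the mitochondrial iron importer of erythroblasts, Car2 carbonic anhydrase and Aqp1 a water channel of red cells. Slc25a37 was already in the list of other synthesis and mitochondrial import genes, and Tspan33 was already among the erythroid markers. Among those most like Alas2 alone were Mkrn1 (r = 0.97), Bpgm (0.96), Tent5c (0.96) and Rnf10 (0.95), of which Bpgm makes the red cell metabolite that lowers oxygen affinity of hemoglobin. All are ranked on values of the same mice, without a test.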

How the data were processed

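Strand-specific paired-end mRNA libraries of whole distal tibiae were made from 4 Control and 7 BMAd-DTA mice. The authors checked reads with FastQC 0.11.9 and aligned them to mm10 with STAR, and the deposited values are raw counts per gene, on which they ran DESeq2; the annotation release is not given in the sources used here. The merged table equals the per-library counts of the read strand. No count column was left unassigned. Counts were tested with edgeR 4.0.16 in R 4.3.3 (filterByExpr, TMM, quasi-likelihood, two-sided, Benjamini-Hochberg over 16496 genes). Log2 CPM used a prior count of 2. Single values were tested by exact permutation over 330 splits, and correlations with 100000 permutations. Positions and exon lengths came from GENCODE M21 (GRCm38), which matched 99.89% of identifiers, and promoters from RefSeq. DESeq2 1.42.0, limma-voom (limma 3.58.1), other scalings, filters, counts and covariates and each mouse left out were alternatives. Steps were tested on simulated data.

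The members and lists were chosen with earlier results of these data known. Named genes were the 9 members, Alas1, the 2 largest and 2 smallest log2 fold changes (and any call) of each list, and the 10 and 5 genes most correlated with the member mean and Alas2; some of these are not reported here. Correlation p-values were adjusted over all genes, in place of the 9 genes first planned.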

Additional observations from a re-analysis of the deposited data

Results flagged for a closer look

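In 5 of 20 group and gene combinations tested (9 heme synthesis genes and Alas1, each in 4 Control and 7 BMAd-DTA mice), the highest or lowest mouse was farther from its nearest neighbour than Dixon's 95% critical value allows. Chance flags about 1 in 20 groups, and the genes are correlated, so these are not independent. BMAd-DTA 5 was high for Uros (61.3 CPM), Urod (156.6 CPM) and Tmem14c (108.8 CPM). Control 4 was low for Ppox (133.5 CPM) and Fech (374.7 CPM). BMAd-DTA 5 had the highest and Control 4 the lowest erythroid marker score of its group (7.81 and 7.28). Both mice were low in skeletal muscle markers (0.804 and 0.592 as mean log2 CPM), as were BMAd-DTA 2 and 3. Adipoq was at 28.5 CPM in Control 4, against 129.8 to 208.8 CPM in Control 1 to 3, and at 114.6 CPM in BMAd-DTA 5, the highest of its group. The other adipocyte markers were also lowest in Control 4 among Control mice. In BMAd-DTA 5, Plin1, Cfd and Fabp4 were the highest of the group, but Cidec and Lep were not. What set these 2 mice apart was not tested.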

How the results depend on the processing

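The 9 genes were refitted under 13 alternative settings and without each of the 11 mice. With DESeq2, 3 of the 9 genes (edgeR: 0) and 5 of the 37 other heme and iron genes (edgeR: 0) passed the adjusted threshold, the latter including Flvcr2, Hmox1 and Tfrc. DESeq2 also called 845 genes in all, against 13. The skeletal muscle score as a covariate left 3 of the 9 genes lower at an unadjusted p under 0.05, in place of 5. With the erythroid marker score as a covariate the count was 0, the median log2 fold change turned from -0.32 to 0.078, and Alas2 (0.26), Fech (0.13), Urod (0.079), Tmem14c (0.078) and Ppox (0.038) turned positive. Under that covariate, 5 of the other heme and iron genes had an unadjusted p under 0.05, in place of 19. The score is made of genes whose means were all lower in BMAd-DTA mice, none past the adjusted threshold in edgeR. Limma-voom, the robust fit, the other scalings, filters and strand settings left both counts of the 9 genes as they were.

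Leaving out 1 mouse at a time gave 0 to 2 genes past the adjusted threshold, 3 to 8 lower at an unadjusted p under 0.05, and a median log2 fold change from -0.45 to -0.24. Among the other heme and iron genes, 0 to 1 passed the adjusted threshold (Ftl1 without Control 3, Abcb10 without Control 4) and 8 (without Control 1) to 22 had an unadjusted p under 0.05. Alad ranged from -0.0062, without Control 4, to 0.30. Relative to the erythroid markers, 1 to 6 of the 9 genes had an exact p under 0.05, with 1 without Control 1, BMAd-DTA 2, 3 or 6 and 6 without Control 3, and Uros ranged from -0.036 to 0.058 around its difference of -0.0057. Without the 2 mice farthest from the median score, 0 genes passed for the correlation with the erythroid markers, in place of 7, and 0 also within the 7 mice below the gap in the score, a setting added after seeing the data. The difference in the log2 ratio of Alas2 to Alas1 stayed between -0.56 and -0.11. No paired analysis was possible because the labels carry no litter or other pairing of the mice.

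With 4 Control mice, 1 of which had the erythroid score of the BMAd-DTA mice, no difference of the 9 genes passed the edgeR test after adjustment over all genes, while 3 did with DESeq2. Depth was not limiting, with at least 639 counts of each gene in each library. Bulk RNA does not tell a change in cell number from a change in cells.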

Other observations

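Genes next to Alad on chromosome 4 were looked at after its values were seen. Hdhd3 had 1.76, 2.08 and 1.97 CPM in BMAd-DTA 3, 4 and 7, the mice with high Alad, and 0.648 to 1.83 CPM in the other 8 mice, of which BMAd-DTA 2 had 1.83 CPM. These values rest on 11 to 38 counts per library. Pole3 had 52.8, 43.3 and 50.1 CPM in BMAd-DTA 3, 4 and 7 and 38.3 to 64.6 CPM in the other mice.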
